A study of Mus musculus with 9 samples.

Results

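The genes described here are 10 genes of homeostatic astrocytes, the resting support cells of the brain: Aqp4, Slc1a2, Slc1a3, Glul, Gja1, Gjb6, Aldh1l1, Sox9, S100b and Fgfr3. They were chosen by name, and all 10 were measured among the 19938 genes tested. Each gene is represented by a probe set that names it alone. Glul had 2 such probe sets, and the one with the higher mean was used. Total RNA of mouse brain tissue, called cortex in the series design, was measured on 9 Affymetrix arrays in 3 groups of 3 biological replicates. The APP-amylin group was 5xFAD mice injected intraperitoneally with human amylin peptide. The APP-PBS group was 5xFAD mice injected with phosphate-buffered saline (PBS), the vehicle. The WT group was B6SJLF1/J wild-type mice injected with PBS. Injections were given every day over 10 weeks, to mice of about 5 months in all groups. 5xFAD mice carry human transgenes driven in neurons by the Thy1 promoter and form amyloid plaques, and amylin is a hormone that beta cells of the pancreas release with insulin. The labels do not give sex, littermates or how the tissue was dissected. Averaged over their lists, markers of striatum were higher, and those of hippocampus and thalamus lower, in all 5xFAD arrays than in the WT arrays, so genotype and the brain regions sampled cannot be told apart in either comparison with WT.

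Astrocytes surround synapses and wrap blood vessels with their endfeet. They take up glutamate released by neurons, turn it into glutamine, buffer potassium and move water, and gap junctions couple them into networks. Near amyloid plaques astrocytes become reactive, which is usually read from the filament gene Gfap. The comparisons ask how the genes of the supporting state stood in plaque-forming brain on vehicle, and how they stood under amylin.

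The 10 genes differed in direction. In APP-PBS mice 5 of them had higher means than in WT mice and 5 had lower means. Fgfr3, a receptor for fibroblast growth factors in astrocytes, fell by 24.8% relative to WT. It was the only one of the 10 that passed the test (0 higher and 1 lower, where 8.58% of all genes passed). The means of Aqp4, Slc1a3 and S100b were 19.2% to 28.2% higher in APP-PBS mice, without passing. Those of Gjb6 and Glul differed by -15.8% and -12.4%, also without passing. Slc1a2 and Gja1, which encode the main glutamate transporter and the main connexin of astrocytes, differed by less than 0.02 on the log2 scale. Between APP-amylin and APP-PBS mice 0 of the 10 passed, where 0.00502% of all genes did.

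Values are log2 intensities as deposited, differences are log2 differences, and a gene was called changed at an adjusted p under 0.05 in limma (Benjamini-Hochberg over 19938 genes). The 8.58% of all genes called in APP-PBS against WT were 3.66% higher and 4.92% lower. The 1 of 10 called is close to that background. At an unadjusted p under 0.05 there were 5 of 10 (3 higher and 2 lower), against 21.2% of all genes. The groups did not overlap in 4 of the 10 genes, against 26.8% of all genes. The median difference of the 10 was -0.03, beside -0.01 for all genes. Their median absolute difference was 0.22, beside 0.07 for all genes. Each of the 10 had a mean of 7.51 or more over the 9 arrays, above the median level of 6.43 over all genes. The values for all genes, here and in the other comparisons, thus include many genes of lower intensity. With the lowest 50% of genes left out, 17.9% of those kept were called in APP-PBS against WT.

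**Figure D1:**
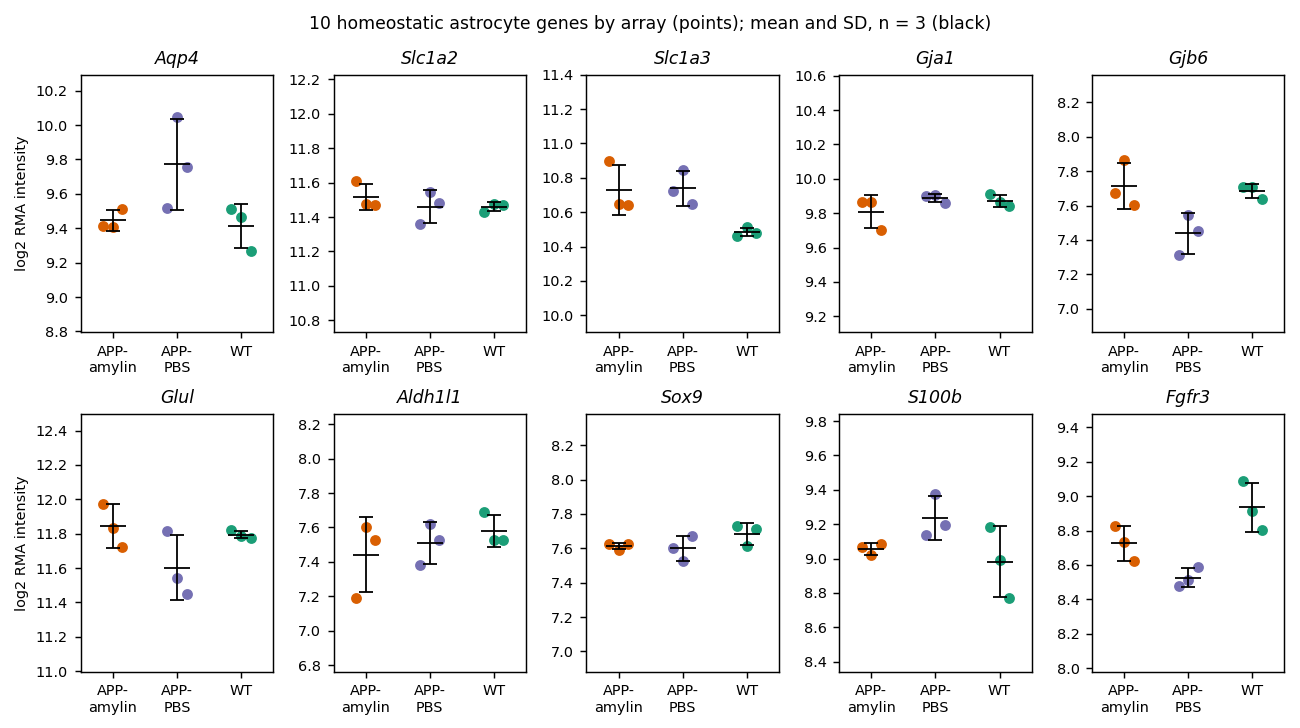
Log2 RMA intensity of the 10 genes in every array, 1 panel per gene, with APP-amylin, APP-PBS and WT from left to right (points, 1 per array; bars, mean and SD, n = 3). All panels span the same height. Fgfr3 is lower in all 3 APP-PBS arrays than in any WT array, while Slc1a2 and Gja1 stay within 0.25 over all 9 arrays.

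Fgfr3 (probe set 10521111, chromosome 5) had log2 intensities of 8.48, 8.51 and 8.59 in the APP-PBS arrays, against 9.09, 8.91 and 8.80 in the WT arrays. All APP-PBS arrays were below all WT arrays. The difference was -0.41 ± 0.08 (SE), a fold of 0.752 with a 95% interval of 0.664 to 0.852 (limma adjusted p = 0.0131). It stayed between -0.48 and -0.33 when any 1 array was left out, and passed in each of those 9 fits. With the mean of an olfactory bulb marker list as a term, the difference was -0.41 and just missed the threshold (limma adjusted p = 0.0541). The APP-amylin arrays read 8.83, 8.73 and 8.62. They lay between the other groups, above every APP-PBS array and overlapping WT. The difference of APP-amylin from APP-PBS was 0.20 ± 0.08 (SE; limma adjusted p = 0.706) and that from WT was -0.21 ± 0.08 (SE; limma adjusted p = 0.187). Neither passed.

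Fgfr3 belongs to a family whose other brain members can be set beside it. Fgfr1, which neurons as well as astrocytes express, averaged 8.12 ± 0.14 in APP-PBS mice and 8.47 ± 0.06 in WT mice (SD, n = 3 each). It fell by 0.36 on the log2 scale (limma adjusted p = 0.0161). Fgfr2, picked after its values had been seen to complete the family, averaged 8.10 ± 0.06 in APP-PBS mice and 8.14 ± 0.03 in WT mice (SD, n = 3 each), a difference of -0.04 with a 95% interval of -0.19 to 0.11. The 3 genes with profiles nearest to that of Fgfr3 over the 9 arrays were Cttn, Acot11 and Mfn2, with root mean square differences of 0.049, 0.055 and 0.056 on the log2 scale after each gene was centred on its mean, against a median of 0.20 over all genes.

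Aqp4 encodes aquaporin 4, the water channel of astrocyte endfeet. Its log2 intensities were 9.52, 10.04 and 9.76 in the APP-PBS arrays, against 9.51, 9.47 and 9.27 in the WT arrays. The groups did not overlap, but the lowest APP-PBS array was only 0.0055 above the highest WT array. The difference was 0.36 ± 0.12 (SE), a fold of 1.28, and did not pass (limma adjusted p = 0.108). Without APP-PBS replicate 1 it was 0.49 and passed (limma adjusted p = 0.0257; 0.0257 to 0.312 over the alternatives). Without APP-PBS replicate 2 it was 0.22 (limma adjusted p = 0.253). The APP-amylin arrays read 9.42, 9.41 and 9.51, close to the WT arrays and below every APP-PBS array. The highest APP-amylin array was only 0.0015 below the lowest APP-PBS array. The difference of APP-amylin from APP-PBS was -0.33 ± 0.12 (SE; limma adjusted p = 0.687). It was -0.19 without APP-PBS replicate 2 and -0.46 without APP-PBS replicate 1.

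Slc1a3 is 1 of the 2 glutamate transporter genes. It encodes GLAST, the transporter that is prominent in radial glia and cerebellar astrocytes. Slc1a3 (probe set 10427590, chromosome 15) read 10.72, 10.84 and 10.65 in the APP-PBS arrays, against 10.46, 10.51 and 10.48 in the WT arrays. Every APP-PBS array was above every WT array, and the WT arrays lay close together. The difference was 0.25 ± 0.08 (SE), a fold of 1.19, and did not pass (limma adjusted p = 0.0847). It passed without APP-amylin replicate 1 (limma adjusted p = 0.0281), an array that enters only through the shared spread. It also passed with the quantile normalization repeated (0.30, limma adjusted p = 0.0354), in a fit of only these 2 groups (0.0481), with the lowest 50% of genes left out (0.0469) and with array weights (0.0379). Over all alternatives the adjusted p ran from 0.0281 to 0.234.

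In the APP-amylin arrays Slc1a3 read 10.90, 10.65 and 10.64, also above every WT array. The difference from WT was 0.25 ± 0.08 (SE; limma adjusted p = 0.114). That from APP-PBS was -0.01 ± 0.08 (SE), with a 95% interval of -0.18 to 0.17. Both comparisons with WT use the same 3 WT arrays. Replicate 1 was the highest APP-amylin array, for Slc1a2 as well.

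Promoter windows are shown for Slc1a3, higher in the 5xFAD arrays of both groups than in any WT array, and Fgfr3, the called gene. Each covers the 250 bases before the annotated start (RefSeq, GRCm38.p6), from 5′ to 3′ along the gene. Slc1a3 spans chr15:8710808-8711057 on the minus strand. Fgfr3 has 2 annotated starts, and the window of the first spans chr5:33721474-33721723 on the plus strand. Capitals mark a match to the STAT motif.
Slc1a3: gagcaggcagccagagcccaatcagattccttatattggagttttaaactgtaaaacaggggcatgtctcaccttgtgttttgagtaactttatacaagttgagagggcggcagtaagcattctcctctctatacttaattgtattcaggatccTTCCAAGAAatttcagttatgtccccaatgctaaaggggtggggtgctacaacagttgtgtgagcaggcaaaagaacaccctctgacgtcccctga
Fgfr3: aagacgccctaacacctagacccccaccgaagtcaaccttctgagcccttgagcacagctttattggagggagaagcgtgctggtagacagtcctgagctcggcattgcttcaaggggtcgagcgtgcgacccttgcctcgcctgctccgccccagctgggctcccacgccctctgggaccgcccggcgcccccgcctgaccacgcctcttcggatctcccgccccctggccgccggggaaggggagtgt
The STAT motif searched, TTCNNNGAA, reads the same on both strands, and 7.02% of the 32851 windows of all genes hold it. STAT3 is a regulator of reactive astrocytes. Among the 9 windows of 8 of the 10 genes (those of Aqp4 and Sox9 were not used here) only the one of Slc1a3 held it. The nuclear factor I motif TTGGCA, on either strand, was found in S100b only, against 12.3% of all windows. The SOX motifs ACAAAG and ACAATG were found in 0 of the 9, against 16.5% and 10.7%. A match describes the letters of a window, and no binding was measured.

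Slc1a2 encodes GLT-1, which carries most glutamate uptake in the forebrain. It ranged from 11.47 to 11.61 in APP-amylin mice, from 11.36 to 11.54 in APP-PBS mice and from 11.43 to 11.48 in WT mice, and all 3 groups overlapped. The difference of APP-PBS from WT was 0.002 ± 0.062 (SE), with a 95% interval of -0.14 to 0.14. Within each array Slc1a2 minus Slc1a3 was 0.64, 0.70 and 0.83 in APP-PBS mice, against 0.96, 0.96 and 0.99 in WT mice. That is 0.25 lower in APP-PBS mice, with no overlap of the groups (p = 0.1 in a two-sided exact permutation test, which cannot go lower with 3 arrays a group, and adjusted p = 0.15 over 6 such tests). Between APP-amylin and APP-PBS mice the same quantity differed by 0.06 (exact permutation p = 0.5).

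Glul encodes glutamine synthetase, which turns the glutamate taken up into glutamine. It read 11.81, 11.54 and 11.45 in the APP-PBS arrays, against 11.82, 11.79 and 11.78 in the WT arrays. Replicates 2 and 3 of APP-PBS were below every WT array, and replicate 1 was within the WT range. The difference was -0.19 ± 0.09 (SE; limma adjusted p = 0.29). Without APP-PBS replicate 1 it was -0.30, and without replicate 3 it was -0.12. In the APP-amylin arrays Glul read 11.97, 11.84 and 11.72, a difference of 0.24 ± 0.09 (SE) from APP-PBS, with overlap and without passing (limma adjusted p = 0.706). The second Glul probe set ran the same way, with differences of -0.15 for APP-PBS against WT and 0.19 for APP-amylin against APP-PBS.

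Of the 2 connexins, which build the gap junctions between astrocytes, only Gjb6 had values that did not overlap between APP-PBS and WT mice. Gjb6 (connexin 30) read 7.31, 7.55 and 7.45 in the APP-PBS arrays, against 7.71, 7.71 and 7.64 in the WT arrays, with every APP-PBS array below every WT array. The difference was -0.25 ± 0.08 (SE), a fold of 0.842, and did not pass (limma adjusted p = 0.0977). It passed with array weights (limma adjusted p = 0.0488; 0.0488 to 0.414 over the alternatives). With the olfactory bulb term it was -0.11 (limma adjusted p = 0.414). The APP-amylin arrays read 7.67, 7.86 and 7.61, above every APP-PBS array and overlapping WT. The difference of 0.27 ± 0.08 (SE) from APP-PBS had the smallest unadjusted p of the 10 genes in that comparison, and it did not pass (limma adjusted p = 0.66).

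Gja1 (connexin 43) ranged from 9.70 to 9.86 in APP-amylin mice, from 9.86 to 9.91 in APP-PBS mice and from 9.84 to 9.91 in WT mice. Its difference between APP-PBS and WT was 0.02 ± 0.06 (SE), with a 95% interval of -0.11 to 0.14. Gja1 minus Gjb6 within an array was 2.58, 2.36 and 2.41 in APP-PBS mice, against 2.20, 2.16 and 2.20 in WT mice. It was 2.19, 1.9999 and 2.09 in APP-amylin mice, so that APP-PBS was above both other groups without overlap. The quantity was 0.26 higher in APP-PBS than in WT mice, and 0.35 lower in APP-amylin than in APP-PBS mice (exact permutation p = 0.1 and adjusted p = 0.15 for each). The 2 comparisons share the APP-PBS arrays.

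S100b encodes a calcium-binding protein of mature astrocytes. It read 9.14, 9.38 and 9.19 in the APP-PBS arrays, against 9.18, 8.99 and 8.77 in the WT arrays. The groups overlapped through WT replicate 1. The difference was 0.25 ± 0.10 (SE; limma adjusted p = 0.174). It was 0.15 without WT replicate 3 and 0.35 without WT replicate 1. The APP-amylin arrays lay between 9.02 and 9.09, below every APP-PBS array, with a difference of -0.18 ± 0.10 (SE; limma adjusted p = 0.776) that was -0.11 without APP-PBS replicate 2.

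Aldh1l1, an enzyme of folate metabolism used as a pan-astrocyte marker, and Sox9, a transcription factor of astrocyte identity, differed little. Aldh1l1 ranged from 7.19 to 7.60 in APP-amylin mice, from 7.38 to 7.62 in APP-PBS mice and from 7.53 to 7.69 in WT mice. Sox9 ranged from 7.59 to 7.62 in APP-amylin mice, from 7.52 to 7.67 in APP-PBS mice and from 7.61 to 7.73 in WT mice. APP-PBS minus WT was -0.07 (95% interval -0.31 to 0.17) for Aldh1l1 and -0.09 (95% interval -0.21 to 0.04) for Sox9. These intervals do not show that the groups were equal. Aldh1l1 stood at the identical value of 7.53 in 4 arrays of 3 groups, and Gja1 at 9.86 in 3 arrays. Such shared values occur in 45.7% of the probe sets of the table. The median polish step of RMA, which summarises the probes of a probe set, can return them.

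**Figure D2:**
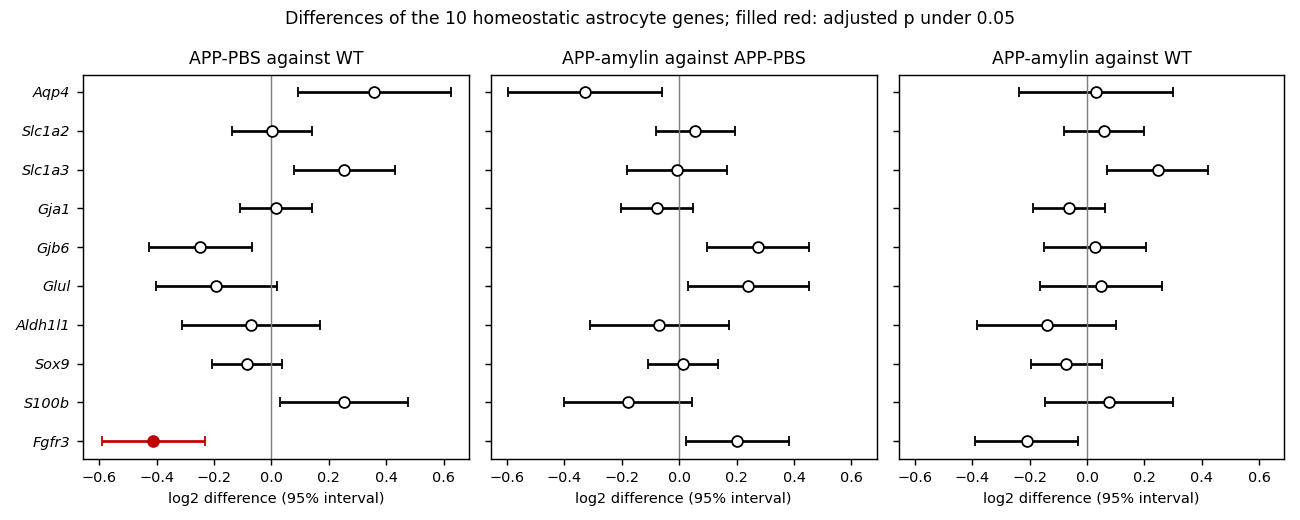
Log2 differences of the 10 genes (x axis) in 3 comparisons, 1 row per gene, with 95% intervals from the limma fit (bars). Only Fgfr3 in APP-PBS against WT passed (filled). Slc1a3 lies near 0.25 in both comparisons with WT, which share the WT arrays. The first and second panels share the APP-PBS arrays.

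Between APP-amylin and APP-PBS mice 5 of the 10 means were higher and 5 were lower. The median difference was 0.003, and the 10 differences ran from -0.33 for Aqp4 to 0.27 for Gjb6. With limma 0 of 10 genes passed (0.00502% of all genes did, which is 1 gene). At an unadjusted p under 0.05 there were 4 of 10 (Aqp4, Gjb6, Glul and Fgfr3), against 6.90% of all genes. The groups did not overlap for 4 of 10 (Aqp4, Gjb6, S100b and Fgfr3), against 9.30% of all genes. Leaving out any 1 array, or any other alternative tried, called 0 of the 10. This comparison and that of APP-PBS with WT share the APP-PBS arrays.

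Between APP-amylin and WT mice 0 of 10 passed, while 5.21% of all genes did. The largest differences were 0.25 for Slc1a3 and -0.21 for Fgfr3, and the other 8 lay between -0.14 and 0.08. At an unadjusted p under 0.05 there were 2 of 10, these same genes, against 19.2% of all genes. The groups did not overlap for 1 of 10, Slc1a3, against 23.1% of all genes.

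The mean of the 10 genes hardly varied. Relative to its WT average it ran from -0.04 to 0.02 in APP-amylin arrays, from -0.07 to 0.06 in APP-PBS arrays and from -0.06 to 0.06 in WT arrays, and all groups overlapped. In whole tissue, fewer astrocytes and less RNA per astrocyte cannot be told apart. Genes nearest to this flat mean were Tectb, Fbxo17, Cibar2, Opn1mw, Sprtn and Ikbkb, with root mean square differences of 0.024 to 0.026 over the 9 arrays, against a median of 0.10 over all genes. The mean spanned only 0.13 over the 9 arrays, so nearness to it shows that a gene varied little and not a shared behaviour.

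The wider set of homeostatic astrocyte genes was split as well. It holds 85 other genes in 6 functional lists, of which 80 were measured. In APP-PBS against WT 18 of the 80 were called, 5 higher and 13 lower (7 and 11 with the quantile normalization repeated), beside 3.66% and 4.92% of all genes. With the lowest 50% of genes left out the count was 22 (6 higher and 16 lower), where 17.9% of the genes kept were called. The median difference of the 80 was -0.06. Among all genes the count fell to 11 without APP-PBS replicate 2 (5 higher and 6 lower, beside 5.74% of all genes). It was also 11 without APP-PBS replicate 3 (4 higher and 7 lower, beside 4.86%). Of the 18 genes 9 were called in every fit that left out 1 array, Abca1, Chrdl1, Fxyd1, Gpc4, Hepacam, Kcnj16, Nfix, Slc38a3 and Slc7a10. The other 9, Agt, Aldh1a1, Aldoc, Fgfr1, Mlc1, Nfib, Ntsr2, Pygb and Slc6a9, lost the call in at least 1 such fit. Between APP-amylin and APP-PBS mice 0 of the 80 were called, with a median of 0.01. Against WT, APP-amylin mice had 11 called genes, 2 higher and 9 lower, beside 2.35% and 2.86% of all genes. Of these 11 only Abca1, Gpc4 and Nfix were called in every fit that left out 1 array. The counts of single lists in APP-PBS against WT, given below, stand beside the same shares, 3.66% higher and 4.92% lower of all genes. The lists were not counted singly with the lowest 50% of genes left out, where 17.9% of those kept were called.

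Of 7 genes of potassium and ion balance 1 rose and 1 fell in APP-PBS mice. Fxyd1 (phospholemman), a regulator of the sodium pump, read 8.94, 9.07 and 8.83 in APP-PBS arrays, against 8.48, 8.36 and 8.48 in WT arrays, a difference of 0.50 ± 0.07 (SE; limma adjusted p = 0.00201). Kcnj16, a subunit of the inward rectifier potassium channels of astrocytes, read 7.45, 7.29 and 7.44 in APP-PBS arrays, against 8.10, 7.82 and 7.98 in WT arrays (-0.58 ± 0.10, SE; limma adjusted p = 0.00871). Atp1b2, a sodium pump subunit, and the chloride channel Clcn2 differed by -0.26 and -0.25 without passing (limma adjusted p = 0.0663 and 0.116). Kcnj10, the partner of Kcnj16, differed by -0.06 ± 0.12 between APP-PBS and WT mice (SE; limma adjusted p = 0.862). It read 8.32, 8.81 and 8.74 in APP-amylin arrays, against 8.86, 9.01 and 9.05 in APP-PBS arrays, with no overlap (-0.35 ± 0.12, SE; limma adjusted p = 0.687). Under amylin Fxyd1 read 8.50, 8.56 and 8.57, below every APP-PBS array (-0.41 ± 0.07 against APP-PBS, SE; limma adjusted p = 0.269, not passing).

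Of 7 genes that anchor endfeet and control cell volume 1 rose and 1 fell in APP-PBS mice, and these 2 encode partners. Mlc1 is a membrane protein of endfeet that HEPACAM (GlialCAM) escorts to cell junctions. Mlc1 averaged 9.53 ± 0.01 in APP-PBS mice and 9.29 ± 0.07 in WT mice (SD, n = 3 each), a difference of 0.24 ± 0.05 (SE; limma adjusted p = 0.015). Hepacam read 8.44, 8.25 and 8.35 in APP-PBS arrays, against 8.91, 8.79 and 8.92 in WT arrays, a difference of -0.52 ± 0.06 (SE; limma adjusted p = 0.00104). In APP-amylin mice Hepacam read 8.55, 8.51 and 8.49, above every APP-PBS array and below every WT array. It was called lower than in WT (-0.35, limma adjusted p = 0.0105) and did not pass against APP-PBS (0.17, limma adjusted p = 0.687). Mlc1 differed by -0.07 between APP-amylin and APP-PBS mice (limma adjusted p = 0.797). Dag1 (dystroglycan) and the laminin subunit Lama2 differed by -0.15 and -0.06 between APP-PBS and WT mice (limma adjusted p = 0.17 and 0.688).

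Of 11 genes of transmitter and amino acid handling 1 rose and 2 fell in APP-PBS mice. Slc38a3, a transporter that lets glutamine out of astrocytes, read 9.20, 9.14 and 9.10 in APP-PBS arrays, against 8.70, 8.61 and 8.67 in WT arrays (0.49 ± 0.06, SE; limma adjusted p = 0.00107). The glycine transporter Slc6a9 fell by 0.51 and the serine transporter Slc7a10 by 0.32 on the log2 scale (limma adjusted p = 0.0126 and 0.00983). Under amylin Slc38a3 read 8.75, 8.85 and 8.92, between the other groups, with -0.31 ± 0.06 against APP-PBS (SE; limma adjusted p = 0.355). Grm3, a glutamate receptor, differed by 0.26 between APP-PBS and WT mice (limma adjusted p = 0.0965) and by -0.16 between APP-amylin and APP-PBS mice (limma adjusted p = 0.758).

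Of 15 genes listed under energy and one-carbon metabolism 0 rose and 3 fell in APP-PBS mice, beside 3.66% and 4.92% of all genes. The list median was -0.18. The largest difference was that of Aldh1a1, a retinaldehyde dehydrogenase, which stood on the list although it belongs to neither theme. It read 7.15, 7.13 and 7.51 in APP-PBS arrays against 8.84, 8.41 and 8.28 in WT arrays (-1.25 ± 0.25, SE; limma adjusted p = 0.0147). The astrocyte-enriched glycolytic enzyme Aldoc fell by 0.22 and the glycogen phosphorylase Pygb by 0.24 on the log2 scale (limma adjusted p = 0.0414 and 0.0435). Pygm, the other glycogen phosphorylase measured, differed by -0.33 and did not pass (limma adjusted p = 0.05 after rounding).

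Slc16a1, the lactate and ketone carrier MCT1, read 7.38, 7.52 and 7.68 in APP-amylin arrays, against 7.80, 8.15 and 8.05 in APP-PBS arrays, with no overlap. Its difference of -0.47 ± 0.10 (SE) did not pass (limma adjusted p = 0.495). The mean of the oligodendrocyte marker list, relative to WT, was also lower in APP-amylin arrays (-0.55 to -0.32) than in APP-PBS arrays (-0.22 to -0.03). Which cell types lay behind the values of Slc16a1 and Kcnj10 was not tested. Cbs, an enzyme of homocysteine metabolism, differed by 0.26 between the same groups (limma adjusted p = 0.687).

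Of 15 genes of lipoproteins and secreted factors 2 rose and 2 fell. Chrdl1, a secreted BMP antagonist through which astrocytes mature synapses, rose by 0.72 ± 0.09 (SE; limma adjusted p = 0.00178), and the cholesterol exporter Abca1 by 0.52 ± 0.09 (SE; limma adjusted p = 0.0101). The synapse-inducing glypican Gpc4 fell by 0.78 (limma adjusted p = 0.00184) and angiotensinogen, Agt, by 1.15 on the log2 scale (limma adjusted p = 0.0242). Htra1, a secreted protease, averaged 9.35 ± 0.02 in APP-amylin mice and 9.07 ± 0.03 in APP-PBS mice (SD, n = 3 each). Its difference of 0.29 ± 0.05 (SE) did not pass (limma adjusted p = 0.269), nor did that of the glypican Gpc6 (-0.19, limma adjusted p = 0.559).

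Of 25 lineage factors and receptors 0 rose and 4 fell in APP-PBS mice, beside 3.66% and 4.92% of all genes. They were the nuclear factor I genes Nfix (-0.57, limma adjusted p = 0.00166) and Nfib (-0.28, limma adjusted p = 0.0433), Fgfr1, and the neurotensin receptor gene Ntsr2 (-0.30, limma adjusted p = 0.0159). Nuclear factor I proteins act with SOX9 in astrocyte formation, and neurons express Nfix and Nfib as well. Mertk, a receptor with which astrocytes engulf debris, averaged 8.69 ± 0.06 in APP-amylin mice and 8.36 ± 0.18 in APP-PBS mice (SD, n = 3 each), a difference that did not pass (0.33 ± 0.08, SE; limma adjusted p = 0.574). Slco1c1, a thyroid hormone transporter, differed by -0.24 between the same groups (limma adjusted p = 0.675).

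**Figure D3:**
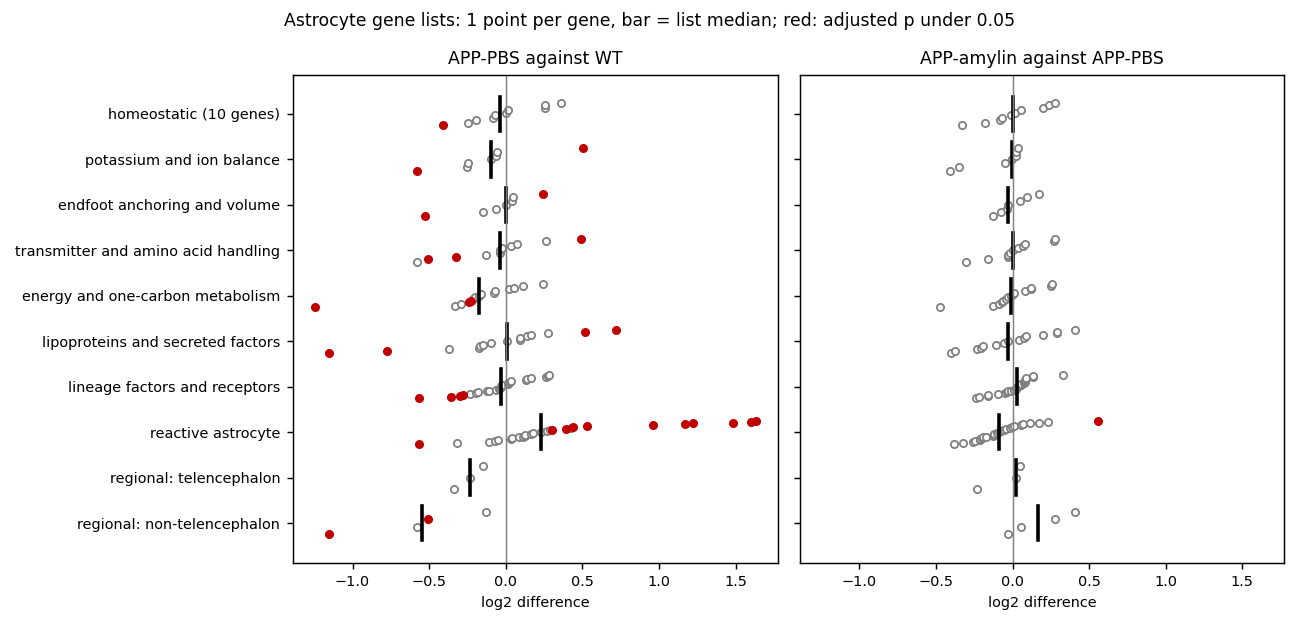
Log2 differences (x axis) of each measured gene of the astrocyte lists in APP-PBS against WT (left) and APP-amylin against APP-PBS (right). Points are genes, filled where the adjusted p was under 0.05, and bars are list medians. On the left called genes lie on both sides of 0 in most homeostatic lists and mostly above 0 in the reactive list. On the right only Fkbp5 of the reactive list was called, in a call lost in 7 of 9 fits that left out 1 array.

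Of 27 measured genes of reactive astrocytes 10 rose and 1 fell in APP-PBS mice, with a median of 0.23. Gfap read 10.45, 11.07 and 10.80 in APP-PBS arrays, against 9.34, 9.05 and 9.04 in WT arrays (1.63 ± 0.14, SE; limma adjusted p = 0.000258). In APP-amylin arrays it read 10.45, 10.61 and 10.49, a difference of -0.26 ± 0.14 (SE) from APP-PBS that did not pass (limma adjusted p = 0.77). Fkbp5, a stress hormone-responsive chaperone gene, fell in APP-PBS mice (-0.57, limma adjusted p = 0.000328) and read 8.30, 8.35 and 8.29 in APP-amylin arrays, against 7.76, 7.80 and 7.70 in APP-PBS arrays. It was called higher in APP-amylin than in APP-PBS mice (0.56, limma adjusted p = 0.0233). The call was lost in 7 of 9 fits that left out 1 array (all but those without APP-PBS replicate 1 or 2). Over all 9 of these fits the difference was 0.53 to 0.58 and the limma adjusted p 0.0395 to 0.226. The call was also lost in a fit of only these 2 groups (limma adjusted p = 0.288) and with the replicate block (0.179). Srgn, a proteoglycan gene that microglia also express, rose by 1.17 ± 0.09 in APP-PBS mice (SE; limma adjusted p = 0.000118) and differed by -0.32 between APP-amylin and APP-PBS mice (limma adjusted p = 0.634). C4b, a complement component that reactive astrocytes also make, rose by 1.48 ± 0.13 (SE; limma adjusted p = 0.000265). Per array the mean of the reactive list stood 0.30 to 0.55 above its WT average in APP-PBS mice, where the mean of the 10 homeostatic genes stayed between -0.07 and 0.06. The difference between the 2 lists was not tested.

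Markers of brain regions differed between the same arrays. In APP-PBS against WT 10 of 11 striatal markers rose, 9 of 12 hippocampal and 9 of 12 thalamic markers fell. The genes of smallest p were Rgs9 in the striatal list (2.31), Cabp7 in the hippocampal list (-2.06) and Rora in the thalamic list (-0.55). Relative to WT the striatal list stood at 1.30 to 1.45 in APP-amylin arrays and 1.31 to 1.55 in APP-PBS arrays, and the hippocampal list at -0.98 to -0.87 in APP-amylin arrays and -0.96 to -0.91 in APP-PBS arrays. The thalamic list stood at -1.01 to -0.41 in APP-amylin arrays and at -0.94 to -0.67 in APP-PBS arrays. The olfactory bulb list varied most within a group, from 0.37 to 1.34 in APP-amylin arrays, from 0.09 to 1.51 in APP-PBS arrays and from -0.09 to 0.19 in WT arrays.

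Astrocytes differ between regions too. Of 4 genes of astrocytes outside the telencephalon, 2 fell in APP-PBS mice, Agt and Slc6a9, with a list median of -0.55. Of 3 measured telencephalic ones 0 passed, with a median of -0.23. Those outside the telencephalon that did not pass were Slc6a11 (-0.58, limma adjusted p = 0.109) and Gdf10 (-0.13, limma adjusted p = 0.336). The telencephalic genes were Crym (-0.34, limma adjusted p = 0.104), Lhx2 (-0.23, limma adjusted p = 0.12) and Mfge8 (-0.15, limma adjusted p = 0.455). Under amylin Agt differed by 0.41 and Slc6a11 by 0.28 from APP-PBS, Mfge8 by -0.23 and Crym by 0.05, and none of these 4 passed (limma adjusted p = 0.786, 0.803, 0.714 and 0.945). Agt, Slc6a9, Slc6a11, Mfge8 and Lhx2 of these lists also stand on the wider homeostatic list. Microglial markers rose, 9 of 9, with a median of 0.97 (Gpr34 1.55), and 5 of 12 neuronal markers fell, with a median of -0.09 (Syn1 -0.31). Of 12 endothelial and pericyte markers 1 rose (Slco1a4 0.63, median 0.20), of 9 oligodendrocyte markers 1 fell (Mobp -0.33, median -0.11), and of 10 markers of choroid plexus and meninges 1 fell (Dcn -1.03, median -0.06). With limma 0 of 6 oligodendrocyte precursor markers (Pdgfra -0.20, median -0.13), 0 of 10 olfactory bulb markers (Eomes 1.73, median 0.59) and 0 of 8 cerebellar markers (Car8 0.29, median -0.07) passed. Between APP-amylin and APP-PBS mice 0 genes of all these marker lists were called. The oligodendrocyte list stood at -0.55 to -0.32 in APP-amylin arrays, against -0.22 to -0.03 in APP-PBS arrays, with no overlap, and 5 of its 9 markers, Mbp, Mog, Mag, Cnp and Opalin, were called lower in APP-amylin than in WT mice (median -0.32). The part of regions and of other cell types in the differences of the astrocyte genes was not tested.

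**Figure D4:**
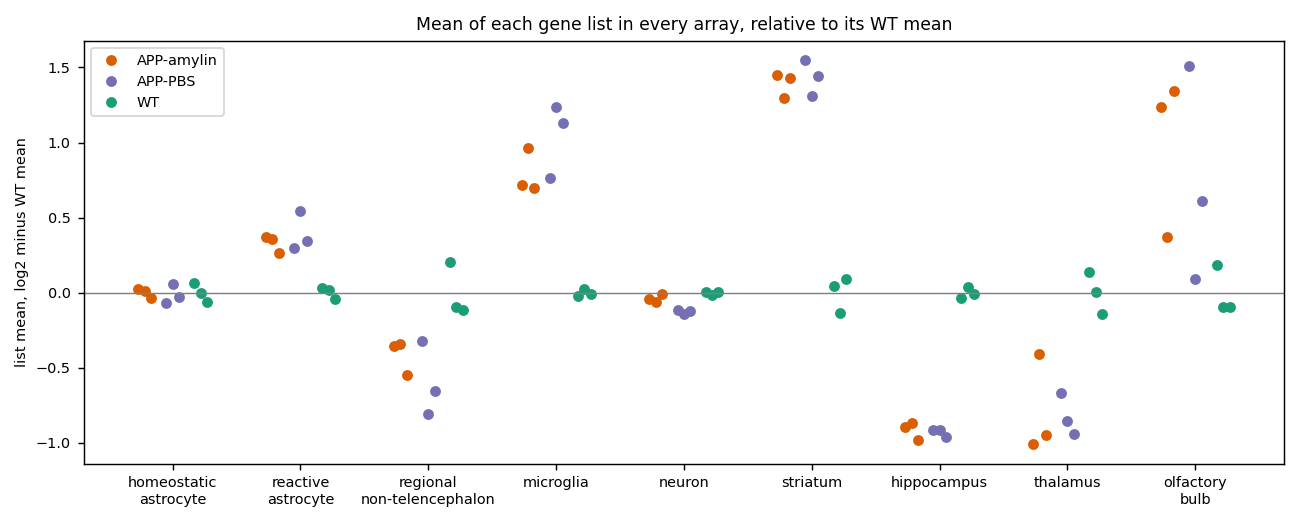
Mean of each gene list per array (points), as log2 minus its average over the WT arrays, for 3 astrocyte lists, 2 lists of other cell types and 4 brain regions, with APP-amylin, APP-PBS and WT from left to right. The mean of the 10 homeostatic genes stays between -0.07 and 0.06 in all arrays, while single genes among them differ by more. The striatal list lies at 1.30 or above and the hippocampal list at -0.87 or below in all 5xFAD arrays.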

How the data were processed

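The authors deposited 1 table of intensities, on a log2 scale as its values show; per the submitters' processing notes, RMA and the oligo package were used. Versions and genome build are not given in the sources used here. Array medians ran from 5.71 to 5.79, and the number of arrays limits the precision. The values were used as deposited. Of 35556 probe sets 21789 named 1 gene symbol, of which 21698 matched a RefSeq gene (GRCm38.p6, names and promoters only); the probe set with the highest mean stood for a gene. All 9 arrays entered 1 fit in limma 3.58.1 (R 4.3.3), with a mean per group, with Benjamini-Hochberg adjustment over 19938 genes and 95% intervals from that fit.

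The 10 genes, the lists and the tests, and how named genes were picked, were chosen with earlier results of these data known. Named were all 10 genes, per astrocyte list the 4 genes of smallest p in APP-PBS against WT and the 2 in APP-amylin against APP-PBS, per marker list 1 gene, and the nearest profiles. Of 241 listed genes 228 were measured. Within-array differences between 2 genes were compared by exact permutation. The fit was tested on simulated data with known changes. Alternatives were other scaling, filters, priors, array weights, fits of 2 groups, a replicate block, the mean of all probe sets, an olfactory bulb term and leaving out each array.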

Additional observations from a re-analysis of the deposited data

How the results depend on the processing

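The count of the 10 genes called in APP-PBS against WT was 1, beside 8.58% of all genes. It was 2 in a fit of 2 groups (7.49% of all genes), without the lowest 50% of genes (17.9% of those kept) and after another round of quantile normalization (8.38%). It was 1 to 2 when 1 array was left out (4.33% to 8.92% of all genes). An adjusted p under 0.1 gave 3, and the share of all genes at that threshold was not counted. With array weights the count was 3 (11.5%), and with the olfactory bulb term it was 0 (5.97%). The median of the 10 genes turned to 0.045 with that term (APP-PBS against WT, Fgfr3 missing the threshold at 0.0541) and was 0.070 in APP-amylin against WT (-0.036 to 0.042 when 1 array was left out). The wider homeostatic count in APP-amylin against WT was 11, beside 5.21% of all genes. With the lowest 50% of genes left out it was 18, beside 12.5% of those kept. With the olfactory bulb term it was 6, beside 2.46%. When 1 array was left out it ran from 6 to 13, and that of APP-PBS against WT from 11 to 19. The APP-amylin count was 6 without APP-amylin replicate 3 or WT replicate 1, where 2.75% and 2.24% of all genes were called. It was 7 without WT replicate 3 (2.99%). The causes were not tested. Of the differences whose sign changed, the largest in the main fit was -0.14, for Aldh1l1 in APP-amylin against WT. With array weights the changed differences were -0.0053 for Slc1a2 (APP-PBS against WT), and 0.021 for Aldh1l1 and -0.014 for Sox9 (APP-amylin against APP-PBS). With the olfactory bulb term Aldh1l1 was 0.051 in APP-PBS against WT and 0.023 in APP-amylin against WT, and Glul was -0.083 in APP-amylin against WT. When 1 array was left out, Slc1a2 ran from -0.039 to 0.053 (APP-PBS against WT). In APP-amylin against APP-PBS Aldh1l1 ran from -0.15 to 0.055, Slc1a3 from -0.093 to 0.045 and Sox9 from -0.025 to 0.049. In APP-amylin against WT Glul ran from -0.017 to 0.11, Gjb6 from -0.047 to 0.081, Aqp4 from -0.042 to 0.079 and S100b from -0.029 to 0.18. Direction and side of the threshold were kept in 288 of 300 values of the 10 genes with changed settings and in 255 of 270 with 1 array left out. The rest are these sign changes and the calls gained or lost by Aqp4, Slc1a3, Gjb6 and Fgfr3. The filters, the other prior, the fits of 2 groups and the replicate block leave every difference as it was, so direction could not change there. The same holds where the array left out belongs to neither group compared. Replicate numbers were not used as pairs in the main fit. After the group mean of each gene was removed, same-numbered arrays correlated at -0.06 to 0.18, over 0.1 in 4 of 9 pairs. Other-numbered arrays correlated at -0.23 to 0.13. Same-numbered APP-PBS arrays correlated at 0.10 to 0.13 with APP-amylin and 0.06 to 0.18 with WT. Between APP-amylin and WT the values were -0.06, -0.05 and 0.14. These 9 pairs cannot settle whether the numbers pair the samples. With the replicate block Fgfr3 was -0.41 (limma adjusted p = 0.0165), the 10 genes kept 1 call and the wider list had 17, beside 8.22% of all genes.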
